A study of Mus musculus with 10 samples.

Results

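Genes that mark eosinophils, 8 in all, were followed across mouse blood progenitor cultures: the granule protein genes Epx, Prg2 and Prg3, the eosinophil-associated ribonuclease genes Ear1 and Ear2, and the surface protein genes Il5ra, Siglecf and Ccr3. They were taken by name, as the probes whose RefSeq accession carries 1 of these 8 symbols, and they had 9 of the 55681 non-control probes on the array and made 8 of the 20508 genes that could be read. The cells were EML-C1, a line of mouse blood progenitors that can form erythroid and myeloid cells, and total RNA was hybridised to 1-colour arrays, 1 array for each of 10 conditions. Cells given erythropoietin (EPO, 10 ng/ml) gave arrays of the Sca1-low fraction at day 3, of the Sca1-high fraction at day 3 and of cells at day 6. The IL-3/GM-CSF arm gave the same 3 arrays from cells given IL-3 (10 ng/ml) with all-trans retinoic acid (10 µM), with 10 ng/ml GM-CSF added only after day 3, so that its day 3 cells had not met GM-CSF. The combined arm, again with 3 arrays, received EPO with IL-3 and retinoic acid, and GM-CSF once day 3 had passed. Untreated cells at day 0 gave 1 array. The day 3 cells were sorted on Sca1, the surface protein of progenitors that Ly6a encodes, and the labels name no fraction for day 6. All arms grew in medium with horse serum and conditioned medium, and they are 1 line. The duplicate samples mentioned in the series design were not analysed here, so no condition had a replicate.

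Eosinophils are granulocytes that arise from myeloid progenitors and depend on interleukin 5, whose receptor pairs a private alpha chain (Il5ra) with a beta chain shared with the receptors of IL-3 and GM-CSF. Their granules hold cationic proteins, made in large amounts while the cell matures in the marrow: eosinophil peroxidase (Epx), the major basic protein (Prg2), its homolog (Prg3) and ribonucleases of the Ear family. Mature cells carry the chemokine receptor Ccr3, through which eotaxins attract them, and the inhibitory lectin Siglec-F (Siglecf). GATA1, C/EBP factors and PU.1 are transcription factors known to act together at eosinophil granule genes.

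Promoter windows of 300 bases, from 250 before to 50 after the annotated start of transcription, were found in RefSeq (GRCm38.p6) for 7 of the 8 members. Prg2 had no entry. The windows of Epx, Prg3 and Il5ra are shown because Epx and Prg3 had their highest levels at day 6 of an arm with IL-3 and GM-CSF, and Il5ra in untreated cells. Capitals mark GATA motifs on either strand, where GATA stands after A or T and before A or G (AGATAA, for example).
Epx (chr11:87875487-87875786, minus strand): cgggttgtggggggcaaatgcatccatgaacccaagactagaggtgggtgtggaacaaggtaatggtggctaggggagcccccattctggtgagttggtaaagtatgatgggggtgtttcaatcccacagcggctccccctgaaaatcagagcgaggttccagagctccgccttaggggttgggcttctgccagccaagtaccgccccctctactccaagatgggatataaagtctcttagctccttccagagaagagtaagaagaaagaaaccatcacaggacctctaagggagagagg
Prg3 (chr2:84987965-84988264, plus strand): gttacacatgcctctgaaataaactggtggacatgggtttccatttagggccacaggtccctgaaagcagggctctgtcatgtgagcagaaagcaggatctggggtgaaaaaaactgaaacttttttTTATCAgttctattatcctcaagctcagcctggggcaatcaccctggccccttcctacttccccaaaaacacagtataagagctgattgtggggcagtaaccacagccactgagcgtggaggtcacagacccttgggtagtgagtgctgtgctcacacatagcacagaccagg
Il5ra (chr6:106748988-106749287, minus strand): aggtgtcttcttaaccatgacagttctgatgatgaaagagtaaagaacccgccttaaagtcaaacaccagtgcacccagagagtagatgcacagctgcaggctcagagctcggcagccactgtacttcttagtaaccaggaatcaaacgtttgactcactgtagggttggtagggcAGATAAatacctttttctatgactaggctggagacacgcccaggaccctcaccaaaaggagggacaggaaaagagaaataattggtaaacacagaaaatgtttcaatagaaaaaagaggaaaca
The Prg3 window held 1 GATA match, 118 to 123 bases before the start, on the opposite strand, and the Il5ra window 1 match, 69 to 74 bases before the start. The Epx window held none, Ccr3 2 (59 to 64 and 25 to 30 bases before the start) and Siglecf 2, both after the start. Of all 32851 promoter windows of this length 29.8% hold such a match. No member's window held a match to the PU.1 motif GAGGAAGT (3.2% of all windows) or to the STAT motif TTCNNNGAA (8.3%).

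The windows of Ear1 and Ear2 are shown because these genes are near copies. Capitals mark the C/EBP motif (TTGCNNAA or its reverse complement), which 10.8% of all windows hold.
Ear1 (chr14:43819590-43819889, minus strand): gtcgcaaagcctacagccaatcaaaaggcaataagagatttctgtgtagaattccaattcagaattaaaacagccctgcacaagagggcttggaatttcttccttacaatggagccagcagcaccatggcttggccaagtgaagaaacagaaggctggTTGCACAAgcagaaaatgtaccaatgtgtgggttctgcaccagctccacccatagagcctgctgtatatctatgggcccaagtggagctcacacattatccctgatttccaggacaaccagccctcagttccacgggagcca
Ear2 (chr14:44102404-44102703, plus strand): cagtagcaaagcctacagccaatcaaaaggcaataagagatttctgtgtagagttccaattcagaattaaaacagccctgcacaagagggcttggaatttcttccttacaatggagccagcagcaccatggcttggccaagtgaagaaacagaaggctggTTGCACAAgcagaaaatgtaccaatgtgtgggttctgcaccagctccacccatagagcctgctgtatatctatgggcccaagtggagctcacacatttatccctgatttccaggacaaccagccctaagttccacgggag
Each held 1 match, TTGCACAA, 85 to 92 bases before the start in Ear1 and 83 to 90 in Ear2. Of 297 aligned bases of the windows 294 were identical (99.0%), and where transcripts are as alike a probe of either gene can bind RNA of the other, so Ear1 and Ear2 values are uncertain. Both genes lie on chromosome 14, in a cluster with 18 gene models between them, 7 of them named as Ear genes or pseudogenes. Prg2 and Prg3 are neighbours on chromosome 2 with 1 gene model (Gm39868) between them. Epx lies on chromosome 11, Il5ra on 6, Siglecf on 7 and Ccr3 on 9.

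Levels below are log2 processed signals relative to the 75th percentile of the array, which lay between 309 and 736 intensity units. A probe that the scanner software did not mark as well above background has only an upper bound, and the lowest signal marked so lay between -5.37 and -3.47 on this scale. Among the 14213 genes tested, the share well above background ran from 78.4% at EPO day 6 to 94.9% in the Sca1-high cells of IL-3/GM-CSF. The SD of repeated spots on an array was 0.042 to 0.085 log2, and with 1 array per condition no spread between cultures could be measured. The arrays lay on 3 slides: every Sca1-low and Sca1-high pair shared a slide, untreated cells shared 1 with EPO day 6 and combined day 6, and IL-3/GM-CSF day 6 lay with the combined day 3 pair. The scanner software's quality summary asked for evaluation on 5 of the 6 day 3 arrays, all 3 of Sca1-low cells among them, and was in range on IL-3/GM-CSF Sca1-high, the day 6 arrays and untreated cells. Its part in the fraction and day comparisons was not tested. The sorted fractions differed in the gene of the sorting marker, Ly6a, which lay between -4.25 and -2.80 in Sca1-low cells and between 1.89 and 4.76 in Sca1-high cells. Levels of different genes were not ranked against each other, because probes differ in their response.

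The 3 granule protein genes were low or undetected in Sca1-low cells of every arm and at day 6 of EPO, and highest at day 6 of the arms with IL-3 and GM-CSF. Epx lay at -5.99 in Sca1-low, -1.64 in Sca1-high and -5.70 in day 6 cells of the EPO arm. The same cells had Epx levels of -6.42, -2.91 and -0.55 in the IL-3/GM-CSF arm and of -6.64, -4.10 and -1.21 in the combined arm, against -2.13 in untreated cells. Epx was well above background on 6 of 10 arrays, the exceptions being the 3 Sca1-low arrays and EPO day 6.

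Prg3 followed nearly the same order. In the same order of cells Prg3 had -5.83, -0.20 and -5.52 with EPO. It had -6.21, -1.87 and -0.11 with IL-3/GM-CSF, and -6.67, -4.88 and -0.03 in the combined arm, against -1.42 in untreated cells. Unlike Epx it missed the background mark in the combined arm's Sca1-high cells, which left 5 arrays that measured it. Prg2, the gene of the protein that forms the crystalline core of the granule, was measured on the same 5 arrays. Its levels were -5.12, -2.40 and -5.61 with EPO. They were -5.23, -3.30 and -0.35 with IL-3/GM-CSF, and -5.35, -5.35 and -1.17 in the combined arm, against -3.18 in untreated cells. All 3 genes thus had measured signal in untreated cells, before EPO, IL-3, retinoic acid or GM-CSF was given. In RNA of a whole culture or fraction, fewer cells of a type and less RNA per cell cannot be told apart.

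Summed as linear signal, with 1 standing for the 75th percentile of the array, Epx, Prg2 and Prg3 reached 2.40 at day 6 of IL-3/GM-CSF and 1.86 at day 6 of the combined treatment, against 0.712 in untreated cells. Sca1-high cells had 1.38 with EPO, 0.508 with IL-3/GM-CSF and 0.117 in the combined arm. Sca1-low cells had 0.0621, 0.0518 and 0.0444 in the same order of arms, and EPO day 6 had 0.0613, all from probes not well above background. Adjacent values in such an order cannot be separated, since no condition was repeated.

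**Figure D1:**
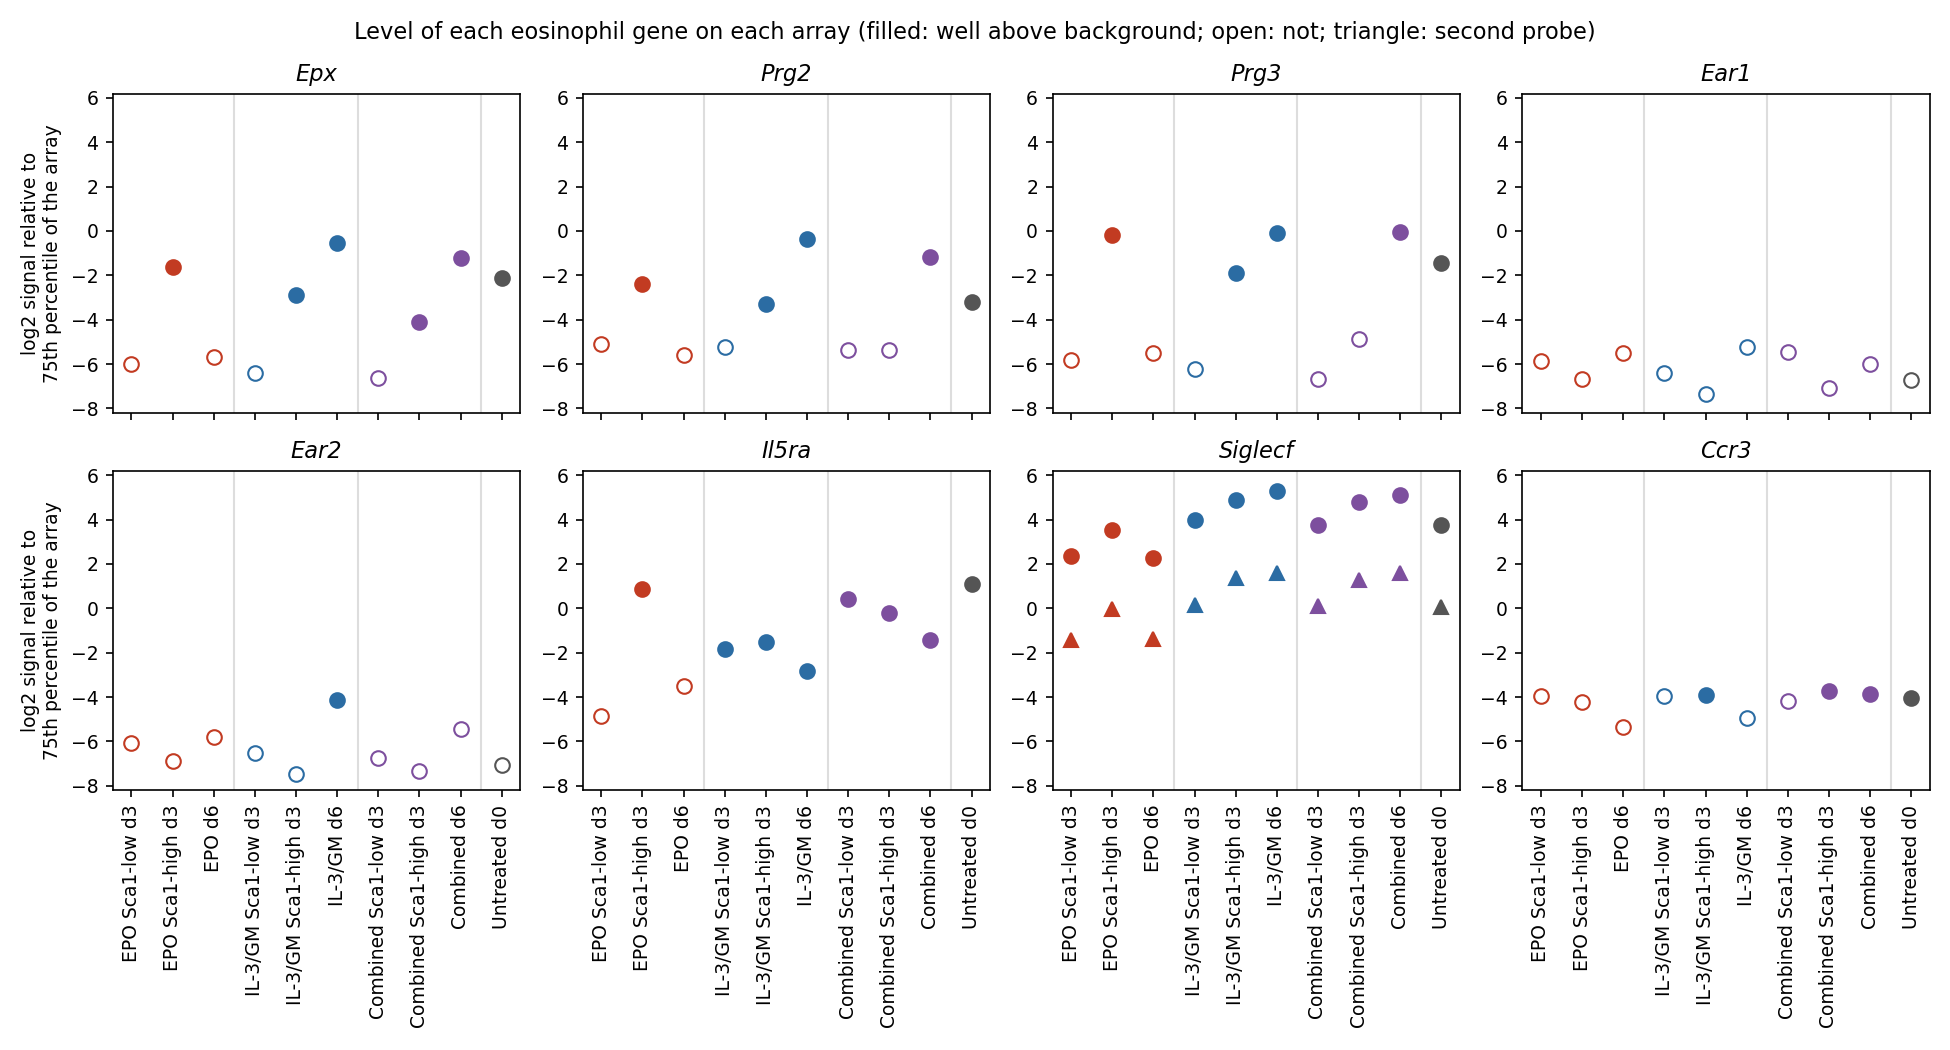
Level of each of the 8 genes on each of the 10 arrays (y axis, log2 signal relative to the 75th percentile of the array; x axis, arrays by treatment, with day 3 fractions, day 6 and untreated cells). Filled symbols are well above background, open ones are not, and triangles show the other Siglecf probe. Epx, Prg2 and Prg3 have open symbols in all Sca1-low cells and at EPO day 6, where Epx lies between -6.64 and -5.70, and their highest symbols at day 6 of IL-3/GM-CSF and of the combined arm.

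The ribonuclease genes were almost undetected. Ear1 was well above background on 0 of 10 arrays, with levels between -7.36 and -5.22. Ear2 was so on 1 array, IL-3/GM-CSF day 6, at -4.15, against -7.06 in untreated cells, which makes it at least 1.5-fold higher there. On the other arrays Ear2 lay between -7.49 and -5.43. Neither gene entered a test, which asked for 2 arrays well above background. Ccr3, the eotaxin receptor gene, passed with 4 arrays but stayed near the detection limit. It was measured in Sca1-high cells of IL-3/GM-CSF (-3.90), in Sca1-high (-3.71) and day 6 cells (-3.87) of the combined arm and in untreated cells (-4.05), and its whole range was -5.35 to -3.71. Mature eosinophils carry these 3 transcripts, and the arrays gave little or no signal for them.

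Il5ra, the alpha chain of the interleukin 5 receptor, followed another order. Its highest level, 1.12, was that of untreated cells. Under EPO it lay at -4.87 in Sca1-low, 0.87 in Sca1-high and -3.51 in day 6 cells, where the Sca1-low and day 6 values were not well above background. Under IL-3/GM-CSF it lay at -1.82, -1.50 and -2.85 and in the combined arm at 0.41, -0.20 and -1.41 in the same cells. Day 6 cells of all 3 arms were thus below untreated cells in Il5ra, also where Prg2 and Prg3 were above them.

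Siglecf was the only member well above background on all 10 arrays. With EPO it had 2.35 in Sca1-low, 3.51 in Sca1-high and 2.26 in day 6 cells. The same cells had 3.97, 4.89 and 5.30 in the IL-3/GM-CSF arm and 3.78, 4.79 and 5.13 in the combined arm, against 3.74 in untreated cells. Every EPO array lay below the untreated array, and every other treated array above it, the smallest gap being 0.03 for combined Sca1-low cells. The other Siglecf probe lay 3.51 to 3.81 lower on every array and followed the same order closely (r = 0.996 over 10 arrays, a description).

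The day 3 fractions were compared as 3 Sca1-low against 3 Sca1-high arrays, paired by treatment in limma. Of the 6 members tested, 3 fell in Sca1-low cells (Epx, Prg3 and Siglecf) and 0 rose. Among all 14213 genes 6.99% were called lower and 4.09% higher at an adjusted p under 0.05, and the median difference was -1.68 for the 6 members and 0.17 for all genes. Epx averaged -6.35 in Sca1-low and -2.88 in Sca1-high cells, a difference of -3.47 (SE 0.39, limma adjusted p = 0.0127). Since no Sca1-low array measured it, the firm statement is that Epx was at least 2.40-fold lower. Prg3 averaged -6.24 in Sca1-low and -2.32 in Sca1-high cells, a difference of -3.92 (SE 0.76, limma adjusted p = 0.0437). No Sca1-low array and 2 of 3 Sca1-high arrays measured Prg3, so this difference rests largely on unmeasured values and has no firm bound. Siglecf, measured everywhere, averaged 3.37 in Sca1-low and 4.40 in Sca1-high cells, a difference of -1.03 (SE 0.20, limma adjusted p = 0.0437). Siglecf and Epx lay lower in Sca1-low than in Sca1-high cells of every arm, for Epx by bounds given below, and Prg3 in the EPO and IL-3/GM-CSF arms. Neither fraction of the combined arm measured Prg3, so it had no direction there. The Siglecf fractions overlapped, since IL-3/GM-CSF and combined Sca1-low cells lay above EPO Sca1-high cells.

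The calls did not all hold when arrays or settings changed. Without either EPO array Epx (adjusted p = 0.00619) and Prg3 (0.0361) stayed called, as they did without either combined array (0.0178 and 0.0147). Epx was also called with normexp background, quantile normalization and no filter on dim probes, but Prg3 was not (adjusted p = 0.0960, 0.0724 and 0.0679), and its difference with normexp was -1.64. Siglecf was not called with no filter (adjusted p = 0.0761). Without either IL-3/GM-CSF array none of the 3 was called (adjusted p = 0.0959 for Epx, 0.174 for Prg3 and 0.148 for Siglecf), although their differences were -3.45, -3.71 and -1.09. Siglecf was also not called without either EPO array (adjusted p = 0.0596) or either combined array (adjusted p = 0.275). When all 10 arrays shared 1 model, no member was called in this comparison (adjusted p = 0.185 for Epx, 0.221 for Prg3 and 0.170 for Siglecf), and 0 of all genes.

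Prg2, Il5ra and Ccr3 did not pass. Prg2 averaged -5.23 in Sca1-low and -3.69 in Sca1-high cells (difference -1.55, SE 0.56, limma adjusted p = 0.149), with differences of -2.72 with EPO, -1.92 with IL-3/GM-CSF and 0.00 in the combined arm, where neither fraction was measured. The bound for Prg2 under EPO was at least 2.53-fold lower. Il5ra differed most between arms. Under EPO it was at least 24.4-fold lower in Sca1-low than in Sca1-high cells, under IL-3/GM-CSF the difference was -0.31 and in the combined arm 0.62, so its mean difference of -1.81 had an SE of 1.31 (limma adjusted p = 0.389). Ccr3 differed by -0.07 (SE 0.24, limma adjusted p = 0.854).

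**Figure D2:**
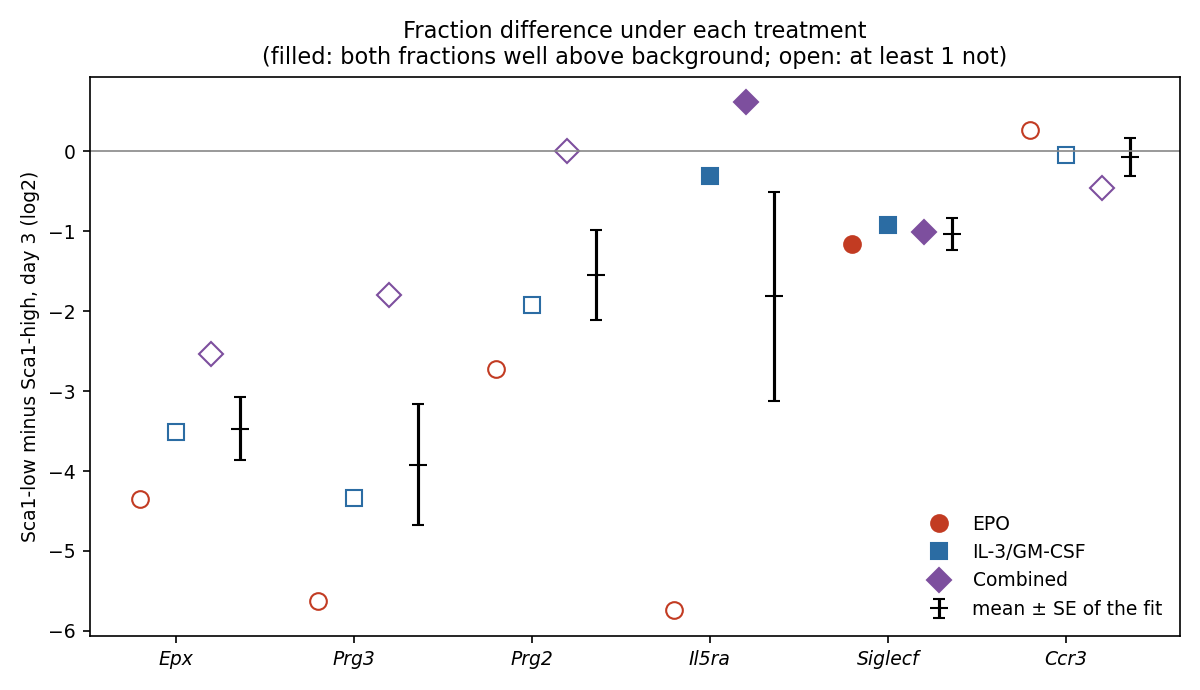
Sca1-low minus Sca1-high at day 3 (y axis, log2) for the 6 tested members under each treatment (coloured symbols) with the mean and its SE from the 6-array fit (black). Filled symbols have both fractions well above background. Siglecf differences of -1.16, -0.91 and -1.01 lie together, while Il5ra runs between -5.74 under EPO and 0.62 in the combined arm.

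In single pairs of arrays a gene was counted where the scanner's values differed at least 2-fold and the higher one was well above background. The lower value could be below that mark, so a count is not always a measured 2-fold difference, for members and for all genes alike. The counts of members take in Ear1 and Ear2, which were not tested, while the shares of all genes are over the 14213 tested genes. Of the 92 counts of members in the pairs below, 82 had a measured fold or a bound of at least 2, 7 had a bound under 2-fold (Prg2 in 3 pairs, Ear2 in 2, Epx and Ccr3 in 1 each), and 3 had no measured direction (Ccr3 in 2 and Ear2 in 1). Between fractions 5 of 8 members were lower in Sca1-low cells with EPO (all genes 14.7%), 3 with IL-3/GM-CSF (13.9%) and 2 in the combined arm (12.0%), and 0 were higher in any arm (12.3%, 9.27% and 11.8% of all genes). In the combined arm only Epx and Siglecf were counted, and the bound for Epx there was 1.30-fold. The corresponding bounds for Epx were 4.28-fold under EPO and 2.48-fold under IL-3/GM-CSF, and those for Prg3 were 11.6-fold and 5.07-fold.

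Day 6 cells were then set against day 3 cells of the same arm. Their direction for the granule genes differed by arm. Under IL-3/GM-CSF, Epx was 5.11-fold, Prg2 7.77-fold and Prg3 3.40-fold higher at day 6 than in Sca1-high cells, and Ear2 at least 2.06-fold. In the combined arm Epx was 7.43-fold, Prg2 at least 14.2-fold and Prg3 at least 28.7-fold higher. Under EPO the same genes were lower at day 6 than in Sca1-high cells: Epx at least 3.56-fold, Prg2 at least 2.10-fold and Prg3 at least 9.62-fold. Il5ra was lower at day 6 in each arm, at least 20.3-fold with EPO, 2.54-fold with IL-3/GM-CSF and 2.30-fold in the combined arm. Siglecf was 2.38-fold lower under EPO, and 1.33-fold higher with IL-3/GM-CSF and 1.26-fold higher in the combined arm.

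By count, 4 of 8 members were higher and 2 lower at day 6 than in Sca1-high cells under IL-3/GM-CSF (all genes 5.71% and 8.08%), 3 higher and 1 lower in the combined arm (6.25% and 6.17%), and 0 higher and 5 lower under EPO (11.5% and 16.0%). Against Sca1-low cells the counts were 5 higher and 1 lower under IL-3/GM-CSF (13.7% and 11.9%), 4 and 1 in the combined arm (14.2% and 11.5%), and 0 and 0 under EPO (5.28% and 8.16%). None of these day 6 and day 3 pairs shared a slide.

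Averaged over arms in the model of all 10 arrays, 0 of the 6 tested members were called between day 6 and either day 3 fraction. Limma called 0.00% of all genes there, with 1475 and 2409 genes at an unadjusted p under 0.05 against Sca1-high and Sca1-low cells. Epx averaged -2.49 at day 6 and -6.35 in Sca1-low cells (difference 3.86, SE 1.35, limma adjusted p = 0.259). Prg3 averaged -1.89 at day 6 and -6.24 in Sca1-low cells (difference 4.35, SE 1.76, limma adjusted p = 0.290). The model takes unevenness among the arms as error. Without the EPO day 6 array limma called 2320 of all genes (1394 higher, 926 lower), and 4 members were called higher than in Sca1-low cells: Epx by 5.87 (limma adjusted p = 0.00202), Prg2 by 4.83 (0.00756), Prg3 by 6.80 (0.00934) and Siglecf by 1.37 (0.0101). That array was the day 6 array where Epx, Prg2 and Prg3 were not well above background. Without the day 6 array of IL-3/GM-CSF or of the combined arm instead, limma called 0 of all genes. With slide as a block the same 4 members as without EPO day 6 were called higher, among 1334 of all genes. There the day 6 arrays left no residual and the error came only from the day 3 pairs. Those calls thus do not measure the spread of a day 6 difference. The blocked differences of Epx (11.89), Prg2 (10.73) and Prg3 (14.15) exceed their whole ranges over the arrays (6.08, 5.27 and 6.64).

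Treated cells were also compared with the untreated array, which all arms share. Prg2 was the granule gene that lay furthest above it at day 6, 7.13-fold under IL-3/GM-CSF and 4.04-fold in the combined arm. Prg3 was 2.49-fold and 2.62-fold, Epx 2.97-fold and 1.89-fold, and Siglecf 2.94-fold and 2.61-fold higher in these 2 day 6 cultures. Il5ra was 15.6-fold lower at day 6 of IL-3/GM-CSF and 5.75-fold lower at day 6 of the combined treatment. At day 6 of EPO, Il5ra was at least 24.0-fold, Prg3 at least 4.13-fold and Epx at least 2.54-fold lower, Siglecf was 2.80-fold lower, and the bound for Prg2 was 1.22-fold. Of these day 6 arrays, those of EPO and of the combined arm shared the slide of untreated cells.

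In Sca1-high cells the distance from untreated cells was smaller under EPO and IL-3/GM-CSF than in the combined arm for the granule genes. Prg3 was 2.33-fold higher under EPO, while Epx (1.40-fold higher) and Prg2 (1.72-fold higher) stayed under 2-fold. Under IL-3/GM-CSF, Epx was 1.72-fold, Prg2 1.09-fold and Prg3 1.36-fold lower. In the combined arm Epx was 3.93-fold, Prg2 at least 3.52-fold and Prg3 at least 10.97-fold lower, and Siglecf 2.07-fold higher. Counts for all treated arrays against untreated cells were 1 higher and 0 lower for EPO Sca1-high (all genes 3.64% and 1.86%), 1 and 1 for IL-3/GM-CSF Sca1-high (9.73% and 6.44%), 1 and 4 for combined Sca1-high (8.70% and 6.50%), 5 and 1 for IL-3/GM-CSF day 6 (9.90% and 9.60%), 3 and 1 for combined day 6 (8.42% and 6.31%) and 0 and 6 for EPO day 6 (11.6% and 14.9%), where the 6 include Ccr3 with no measured direction. In Sca1-low cells 5 members were lower with EPO (17.8%), 4 with IL-3/GM-CSF (10.6%) and 3 in the combined arm (11.8%), and 0 were higher in any arm (18.5%, 7.89% and 10.2%). In the model of all 10 arrays limma called 0 members and 0.00% of all genes for each treatment against untreated cells, with 1493, 961 and 677 genes at an unadjusted p under 0.05 for the EPO, IL-3/GM-CSF and combined arms. With slide as a block the day 6 and untreated arrays left no residual, so the error came only from the day 3 pairs. Calls from that fit therefore do not measure the spread of a difference from untreated cells. The blocked differences for EPO of Epx (-10.35), Prg2 (-9.07), Prg3 (-12.22) and Siglecf (-3.08) each exceed the gene's whole range over the arrays (6.08, 5.27, 6.64 and 3.04).

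Between treatments Siglecf was the member with every array measured. Over 3 arrays each it averaged 2.71 under EPO and 4.72 under IL-3/GM-CSF, a difference of -2.01 (SE 0.38, limma adjusted p = 0.173), and 4.56 in the combined arm and 2.71 under EPO, a difference of 1.86 (SE 0.38, limma adjusted p = 0.147). The lowest Siglecf value in the combined arm or IL-3/GM-CSF, 3.78, lay above the highest under EPO, 3.51. Neither difference passed without slide as a block, and limma called 0.00704% of all genes in each of these 2 comparisons, 1 gene each. The combined and IL-3/GM-CSF arms differed in Siglecf by -0.15 (SE 0.38), with 0.00% of genes called. With slide as a block the combined and EPO arms were compared only through their day 6 arrays, which shared a slide. The error then came from the day 3 pairs alone, so calls from that fit do not measure the spread of the arm difference. For Epx the sign depended on the population: EPO and IL-3/GM-CSF cells had -1.64 and -2.91 in the Sca1-high fraction but -5.70 and -0.55 at day 6. At day 6 the combined arm had more members at least 2-fold above EPO (6 of 8, all genes 16.8%) than below (0, 13.1%), and EPO had 0 above and 5 below IL-3/GM-CSF (16.3% and 17.1%). Ccr3 among the 6 and Ear2 among the 5 had no measured direction, being below the detection limit of the EPO day 6 array. In Sca1-high cells EPO had 3 members above and 1 below IL-3/GM-CSF (5.90% and 7.59%), and the combined arm 1 above and 4 below EPO (9.04% and 9.15%).

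Genes that work with the members were taken as 4 lists. One list held receptors and signalling genes of IL-5, IL-3 and GM-CSF. Between day 3 fractions 5 of its 17 tested genes fell in Sca1-low cells, 0 rose, and the median was -0.52. Among all genes 6.99% fell, 4.09% rose and the median was 0.17. The beta chain genes Csf2rb and Csf2rb2, of which the product of Csf2rb pairs with Il5ra, fell by 1.55 (SE 0.25, adjusted p = 0.0282) and by 2.04 (SE 0.32, adjusted p = 0.0255). Csf2rb lay at 5.09, 4.58 and 3.83 in Sca1-low cells of EPO, IL-3/GM-CSF and combined arms, against 6.92, 5.66 and 5.58 in Sca1-high cells, so that unlike Il5ra it was lower in Sca1-low cells under every treatment. The tyrosine kinase gene Syk fell by 2.01 (SE 0.19, adjusted p = 0.00972), the survival gene Bcl2l1 by 1.72 (SE 0.25, adjusted p = 0.0220) and the feedback inhibitor gene Socs3 by 1.66 (SE 0.23, adjusted p = 0.0194). The alpha chain genes of the IL-3 and GM-CSF receptors, Il3ra and Csf2ra, differed by -0.89 (adjusted p = 0.0658) and -0.42 (adjusted p = 0.316).

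The list of lineage regulators held transcription factors of the eosinophil and neighbouring fates. Of these 7 of 16 were called, 2 higher and 5 lower in Sca1-low cells (all genes 4.09% and 6.99%), with a median of -1.44. Gata1 rose by 2.66 (SE 0.26, adjusted p = 0.00967) and its cofactor gene Zfpm1 by 1.55 (SE 0.23, adjusted p = 0.0232). GATA1 is a factor of erythroid cells, mast cells and eosinophils alike. Gata1 lay at 7.06, 6.21 and 6.43 in Sca1-low cells against 4.92, 3.27 and 3.54 in Sca1-high cells, and at 0.82 at day 6 of IL-3/GM-CSF, where Prg2 and Epx had their highest levels. Of the granulocyte factors, Gfi1 was at least 60.1-fold lower in Sca1-low cells (adjusted p = 0.00398), Cebpe fell by 6.46 (SE 0.22, adjusted p = 0.00398, 2 of 3 Sca1-low arrays measured) and Cebpa was at least 5.74-fold lower (adjusted p = 0.00864). Cebpe, whose product is needed for granulocyte maturation in mice, lay at 8.13 and 7.58 at day 6 of IL-3/GM-CSF and of the combined arm, against 1.04 in untreated cells. Irf8 fell by 3.87 (SE 0.50, adjusted p = 0.0172, 1 of 3 Sca1-low arrays measured) and Id2 by 2.82 (SE 0.26, adjusted p = 0.00932). Gata2 and Spi1, the gene of PU.1, differed by -0.22 (adjusted p = 0.742) and -1.51 (adjusted p = 0.0634).

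Of the other ribonuclease and granule genes, 8 of 11 were tested, 0 were called in either direction (all genes 4.09% higher and 6.99% lower) and the median was -0.25. Ear6 and Ear10, also of the Ear family, differed by 0.10 (adjusted p = 0.891) and -0.53 (adjusted p = 0.226). Of the surface, chemokine and lipid mediator genes, 16 of 21 were tested, 3 fell and 0 rose (all genes 6.99% and 4.09%), with a median of -1.30. The inhibitory receptor gene Pirb fell by 3.97 (SE 0.45, adjusted p = 0.0127), the gene of the 5-lipoxygenase activating protein, Alox5ap, by 1.76 (SE 0.20, adjusted p = 0.0132), and the chemokine receptor gene Ccr1 was at least 3.94-fold lower (adjusted p = 0.0109). All adjusted p-values in these 3 paragraphs on lists are from the 6-array limma fit, and the calls share its dependence on the IL-3/GM-CSF arrays, without either of which 0 of all genes were called.

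**Figure D3:**
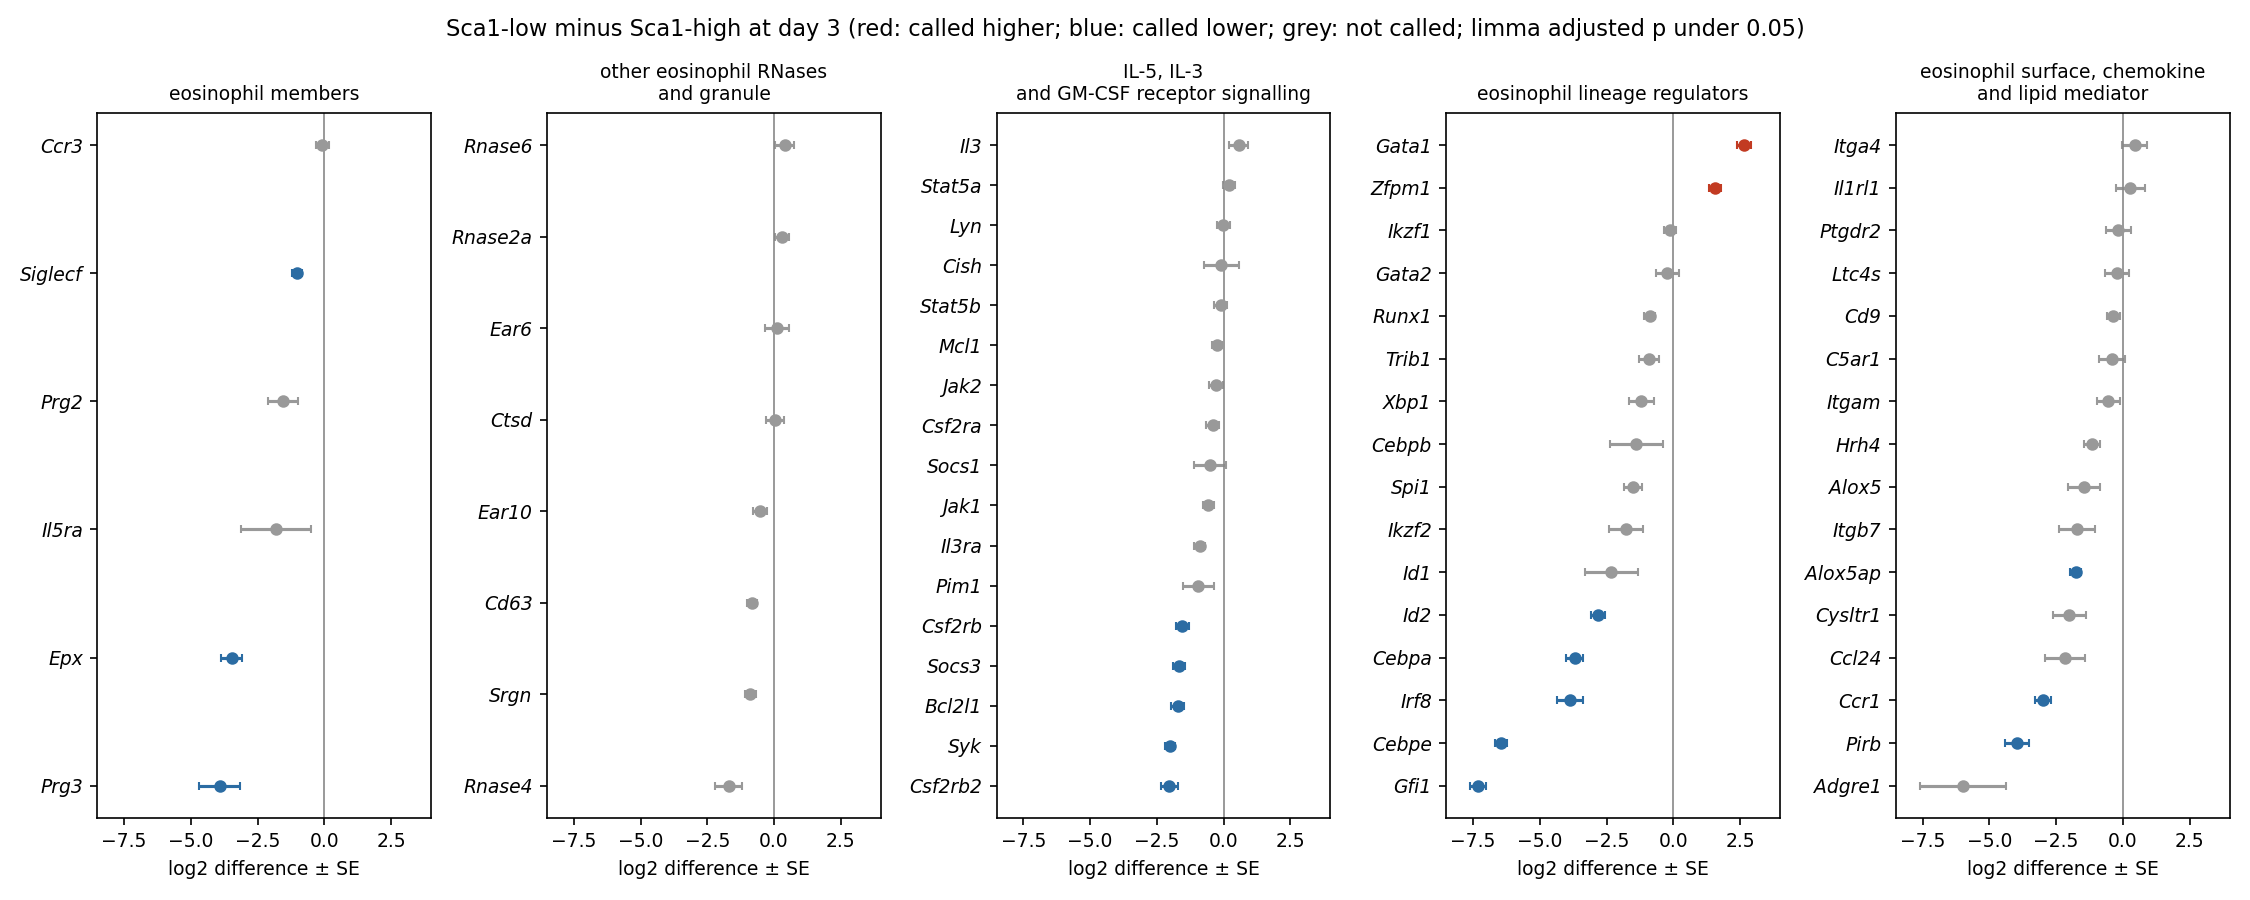
Sca1-low minus Sca1-high at day 3 (x axis, log2 difference with its SE over 6 arrays) for the tested genes of the members' list and of 4 related lists. Red genes were called higher, blue lower and grey were not called. Among lineage regulators Gata1 and Zfpm1 lie to the right, and Gfi1 and Cebpe furthest to the left.

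In the comparisons over all 10 arrays, 0 genes of these 4 lists were called, beside 0 or 1 of all genes in each comparison. The largest mean differences for IL-3/GM-CSF against untreated cells were those of the cytokine feedback genes Cish (5.56), Pim1 (4.04) and Socs1 (3.18), the regulators Id1 (6.30), Cebpb (3.61) and Cebpe (3.47), the surface and lipid genes Alox5 (at least 38.1-fold), Adgre1 (6.33) and C5ar1 (2 of 3 arrays measured, so no firm bound), and the ribonuclease and granule genes Rnase4 (at least 3.89-fold), Rnase2a (at least 2.71-fold) and Ctsd (0.61), with limma adjusted p between 0.343 and 0.998. Cish was also the largest of the signalling genes for EPO (4.71) and for the combined arm (4.86) against untreated cells. Alox5, the gene of 5-lipoxygenase, was not well above background on any EPO array or in untreated cells, and averaged 0.52 under IL-3/GM-CSF. Set against IL-3/GM-CSF, EPO arrays had it at least 21.7-fold lower (adjusted p = 0.132).

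Markers of the other cell types that EML cells can form also differed between arrays, some in the opposite direction to the members. Their part in the results was not tested. In the fraction comparison 9 of 11 tested erythroid markers rose in Sca1-low cells, whereas 6 of 9 progenitor, 5 of 13 mast cell and basophil, 2 of 14 neutrophil and 2 of 8 monocyte and macrophage markers fell. Among all genes 4.09% rose and 6.99% fell, so the counts of 2 are not read as a result about those lists. The progenitor list holds Ly6a, whose difference the sort itself set, and Kit stands on both the progenitor and the mast cell and basophil lists. Summed as linear signal, the mast cell and basophil list ranged from 29.1 to 57.8 in Sca1-low and from 391 to 893 in Sca1-high cells, the erythroid list from 859 to 2138 in Sca1-low and from 333 to 468 in Sca1-high cells, and the progenitor list from 9.76 to 12.2 in Sca1-low and from 86.6 to 180 in Sca1-high cells. The neutrophil list ranged from 108 to 272 in Sca1-low and from 490.5 to 839 in Sca1-high cells. The monocyte and macrophage list ranged from 4.61 to 10.9 in Sca1-low and from 12.04 to 15.7 in Sca1-high cells. Its 10.9 was that of EPO Sca1-low cells, where 2 of its 10 genes with a probe were well above background.

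Day 6 cells of IL-3/GM-CSF and of the combined arm, where the granule genes were highest, had neutrophil sums of 2637 and 2096, against 692 in untreated cells. Their defining calprotectin genes S100a8 and S100a9 lay at 9.06 and 9.27 with IL-3/GM-CSF and at 8.83 and 9.05 in the combined arm, while in untreated cells neither was well above background. Elane (4.88 and 4.38, against 2.54 in untreated cells) and Mpo (8.73 and 8.52, against 8.24) were measured on every array. The mast cell and basophil sums of these cultures were 138 and 392, against 746 in untreated cells, in the opposite direction to Prg2 and Prg3, with Mcpt8 at 2.66 and 2.71 against 2.20 and Cpa3 at 5.87 and 7.42 against 8.28. Fcer1a and Ms4a2 were well above background on 4 and 3 of 10 arrays. EPO day 6 had a mast cell and basophil sum of 21.9, a neutrophil sum of 107 and an erythroid sum of 2095, against 247 in untreated cells for the erythroid sum. Among the monocyte markers Csf1r was measured on all arrays (1.68 to 3.64) and Ccr2 was not well above background on 3. The erythroid defining genes Klf1 and Hba-a1 were measured on all arrays, Alas2 on 8. Of the progenitor genes Cd34 and Flt3 were measured on all arrays and Ly6a on 9.

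**Figure D4:**
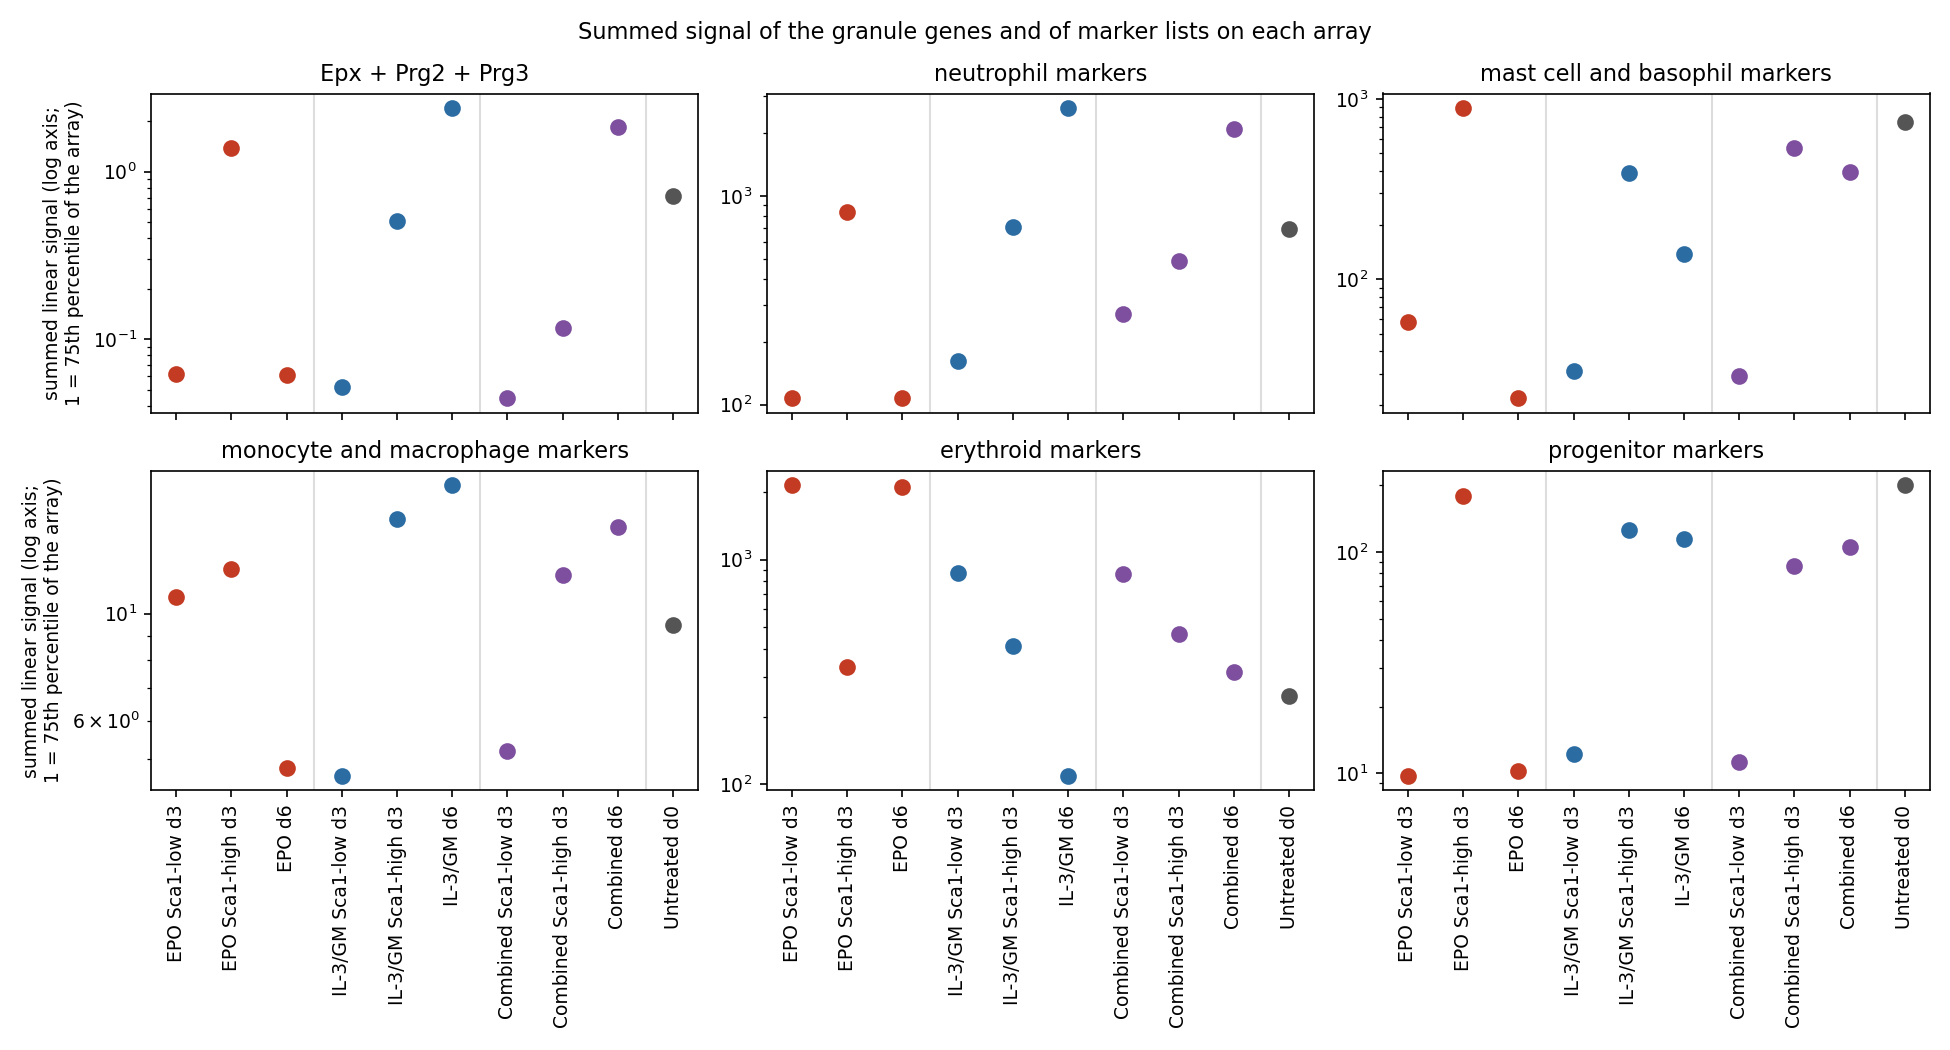
Summed linear signal (y axes, log scale, 1 is the 75th percentile of the array) of Epx, Prg2 and Prg3 and of 5 marker lists on each array (x axis). The granule sum is highest at IL-3/GM-CSF day 6 (2.40), as are the neutrophil and monocyte sums, while the mast cell and basophil sum is highest in EPO Sca1-high cells (893).

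For each member measured on at least 5 arrays the 3 tested genes most like it were sought by Pearson correlation over the 10 arrays, as a description with no test. Arrays share cell populations and treatments, so many genes run alike. Epx was most like Trp53inp2 (r = 0.993), Ly6f (0.990) and Gpat3 (0.990), and Prg3 like Txndc15 (0.981), Trp53inp2 (0.979) and Rab21 (0.973). Trp53inp2 thus stood on both lists. It lay at 2.30 and 1.80 at day 6 of IL-3/GM-CSF and of the combined arm, against 1.51 in untreated cells, and between -0.55 and -0.06 in Sca1-low cells and at EPO day 6. Like Epx, Ly6f and Gpat3 were not well above background in Sca1-low cells or at EPO day 6, so on those arrays their correlation compares unmeasured values. Prg2 was most like Pgap2 (0.984), Phyh (0.979) and the lysosomal sialidase gene Neu1 (0.974). Neu1 lay at 5.28 at day 6 of IL-3/GM-CSF, against 3.36 in untreated cells. Il5ra was most like Zfp30 (0.988), Rbpms (0.935) and Tbc1d19 (0.926), all 3 highest in untreated cells. Siglecf was most like Myo7a (0.988), Plac8 (0.987) and the calcium channel gene Itpr1 (0.985), and Plac8 lay at 7.35 at day 6 of IL-3/GM-CSF, against 2.35 in untreated cells.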

How the data were processed

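The deposited files hold Agilent Feature Extraction 11.0.1.1 output for 10 1-colour arrays. Per the file headers, each spot has a processed signal, an intensity in linear units after the software's background correction, with marks for background and outliers. The deposited series matrix held the same intensities (100% of values equal within a relative tolerance of 1e-05) in 62969 rows. Read depth does not apply, and the number of arrays limits the precision.

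All 10 arrays were kept. From the 59305 non-control spots per array, spots marked non-uniform or population outliers were set to missing, log2 signal was taken relative to the array's 75th percentile and repeat spots were averaged. A RefSeq table (GRCm38.p6) named 27235 probes by accession. The brightest probe stood for a gene, and a gene was tested where at least 2 arrays had it well above background (14213 genes). Against an undetected group, folds are bounds set at each array's lowest signal well above background, or at the probe's own value where higher. In bounds on group means the other group entered as read, so such a bound is firm only where all its arrays were well above background.

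Sca1-low and Sca1-high cells were compared in limma 3.58.1 (R 4.3.3) over the 6 day 3 arrays with treatment as a block, which leaves 2 residual degrees of freedom. The other comparisons used an additive model of all 10 arrays with 4. Benjamini-Hochberg adjustment ran over all tested genes, with a threshold of 0.05. With 1 array per condition, the error term is how unevenly a difference runs over arms or populations, and p-values say nothing of replicate error. With slide as a block the error is only how unevenly the Sca1 difference runs over arms at day 3. The fit was checked on simulated data.

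Members and lists were chosen with earlier results of these data known. Named were all members, of each related list the called genes (at most 6 by size) or the 3 largest mean differences, the defining markers, and the 3 genes most correlated with each member. A few not called list genes were named after their values were seen: Il3ra, Csf2ra, Gata2, Spi1, Ear6 and Ear10. Alternatives were other backgrounds, scalings, filters, probe rules, slide as a block and each array left out. The mean signal column named for normexp (offset 50) was not used here, and median signals took its place.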

Additional observations from a re-analysis of the deposited data

Results flagged for a closer look

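For the granule genes the difference from untreated cells had opposite signs in Sca1-high day 3 cells and in day 6 cells of the same arm. Each of these differences rests on 1 array a side, all share the untreated array, and the difference between them was not tested. Under EPO the log2 difference in Sca1-high cells and at day 6 was 0.49 and -3.58 for Epx, 0.78 and -2.43 for Prg2 and 1.22 and -4.10 for Prg3. Under IL-3/GM-CSF it was -0.78 and 1.57 for Epx, -0.12 and 2.83 for Prg2 and -0.45 and 1.32 for Prg3. Under the combined treatment it was -1.97 and 0.92 for Epx, -2.17 and 2.01 for Prg2 and -3.46 and 1.39 for Prg3. The day 6 values under EPO, and those of Prg2 and Prg3 in combined Sca1-high cells, come from probes not well above background.

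The fraction difference of Il5ra, Sca1-low minus Sca1-high, was -5.74 under EPO and 0.62 under the combined treatment, and -0.31 under IL-3/GM-CSF. The opposite signs were not tested. Ccr3, near the detection limit, differed from untreated cells by 0.15 in Sca1-high cells of IL-3/GM-CSF and by -0.89 at day 6 of that arm, where it was not well above background, also untested.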

How the results depend on the processing

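No called member turned direction in any alternative fit. Of 855 member values 756 kept their sign and their side of the threshold, 67 that were not called changed sign, 15 became called and 17 were no longer called. The number of members called between fractions (3) was 1 with no filter on dim probes (Epx; 1025 of all genes were called, against 1574), 1 where genes had to be well above background on all arrays of the fit (Siglecf, then the only member tested) and 0 with all 10 arrays. It ranged from 0 to 2 with each array left out, and was 0 without either IL-3/GM-CSF array, where limma called 0 of all genes. With normexp Epx differed by -1.15 (adjusted p = 0.0326) and 2201 genes were called. Quantile normalization moved the median difference of all genes from 0.17 to 0.05.

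With slide as a block, 4 members were called for EPO minus untreated, 1 for IL-3/GM-CSF minus untreated, 2 for combined minus EPO and 4 for day 6 minus Sca1-low, beside 1042, 298, 864 and 1334 of all 14213 genes, against 0, 0, 1 and 0 without the block. There Epx was -10.35 for EPO minus untreated and 11.89 for day 6 minus Sca1-low, beyond its whole range of 6.08 over the arrays. The cause was not tested. In the blocked fit only the day 3 pairs left a residual, and combined minus EPO rested on their day 6 arrays alone. Its calls in these comparisons thus do not measure the spread of the differences. Over arrays left out, the count for day 6 minus Sca1-low ranged from 0 to 4, with 4 without EPO day 6 (2320 of all genes called), and was 0 in every other comparison of the 10-array model. No pairing by replicate number was possible because every condition has the replicate number 1 only. The block of the fraction comparison is the treatment, not a replicate number. Probes not well above background limit Epx, Prg2, Prg3, Ear1, Ear2 and Ccr3.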
